A study of Mus musculus with 6 samples.

Results

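The genes of fatty acid oxidation and uptake were described in 6 RNA-seq libraries of FAC-sorted mouse pancreatic beta cells. The set was a list of 37 genes that cover the nuclear receptors of the pathway, fatty acid binding and activation, the carnitine shuttle, mitochondrial and peroxisomal oxidation, electron transfer, acyl-CoA thioesterases and the carrier Ucp2. A member was kept where its mean over the 6 libraries was at least 1 FPKM (fragments per length of transcript and per number of mapped fragments), and 33 of the 37 passed, among 11131 of 23087 genes that passed the same filter. The lowest member inside this limit was Acot2, at a mean of 1.83 FPKM, and the highest outside it was Ppargc1a, at 0.230 FPKM.

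The mice were females of a mixed 129J-C57BL/6 background on standard chow, wild type (WT) or with floxed FoxO1 excised by a RIP-Cre transgene (IKO), in which Cre is driven by the rat insulin promoter. Each genotype had 1 library from nulliparous mice at 3 months, 1 from nulliparous mice at 12 months, and 1 from multiparous mice at 12 months that had been through 3 pregnancies. After pregnancies the titles name the WT library NGT and the IKO library DM. What these titles mark cannot be told apart from genotype within the multiparous pair or from parity within a genotype. Whether the WT mice carried a floxed allele or Cre, and how many animals a library held, is not given in the labels. Below, "young" means 3 months and "older" 12 months, and 3 values of a genotype stand in the order 3 months, 12 months nulliparous and 12 months multiparous.

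Fatty acids enter a cell and are bound by carrier proteins, are joined to coenzyme A by acyl-CoA synthetases, and cross into mitochondria through the carnitine shuttle. There a repeated cycle of dehydrogenation, hydration, a second dehydrogenation and thiolytic cleavage releases acetyl-CoA, and peroxisomes run a related cycle on very long and branched chains. In beta cells, glucose raises malonyl-CoA, which inhibits the entry enzyme CPT1 and turns acyl-CoA away from oxidation, and the short-chain dehydrogenase encoded by Hadh also restrains glutamate dehydrogenase, so that loss of HADH in humans causes excess insulin secretion.

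Foxo1, the targeted gene, had 5.67, 7.62 and 8.93 FPKM in WT, against 0.410, 0.410 and 0.656 FPKM in IKO. Of 10 beta cell markers 7 were measured above the filter, and the other 3, Ins1, Ins2 and Iapp, were listed at 0 in all 6 libraries, which can be a failed estimate. The 12-month nulliparous WT library stood apart. Its correlation with the other libraries over log2(FPKM + 1) of all tested genes was 0.955 to 0.961, whereas the other 5 correlated with each other at 0.982 to 0.993. It held the highest value of all 8 endothelial and all 10 acinar markers. The endothelial markers summed to 9.82 FPKM there and to 4.18 to 4.61 elsewhere. Acinar markers summed to 75.0 FPKM there and to 4.05 to 27.9 elsewhere, and Ppy, the hormone of PP cells, was at 989.7 FPKM against 219 to 361. Alpha cell markers summed to 1091 FPKM there and to 299 to 759 elsewhere, and delta cell markers to 616 against 157 to 252. Beta cell markers summed to 1203 against 1297 to 1592, though 3 of the 7 measured were highest in that library. Ductal markers (528 against 481 to 599) and macrophage and leukocyte markers (17.6 against 14.7 to 20.8) lay within the range of the others. Stellate and fibroblast markers summed to 2.14 FPKM against 0.308 to 1.22. The adipocyte markers summed to at most 0.277 FPKM in any library, with Cfd listed at 0 in all 6. The part of these other cells in the results was not tested. In bulk samples such as these, fewer cells of a type and less RNA per cell cannot be told apart.

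Hadh was the most abundant member, and its promoter window is shown because the results below return to it. RefSeq (GRCm38.p6) gives chr3:131272052-131272351 on the minus strand, printed 5′ to 3′, with the last 50 bases, those from the transcription start on, in capitals. The window is 63.0% G and C and holds 17 CpG dinucleotides.
Hadh promoter: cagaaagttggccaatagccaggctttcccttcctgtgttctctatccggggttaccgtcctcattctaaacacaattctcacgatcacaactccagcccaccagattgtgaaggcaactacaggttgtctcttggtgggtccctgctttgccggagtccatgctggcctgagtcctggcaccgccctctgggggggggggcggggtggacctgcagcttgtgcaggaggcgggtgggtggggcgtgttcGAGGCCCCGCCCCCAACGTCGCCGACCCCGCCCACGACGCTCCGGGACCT
Hadha and Hadhb encode the α and β subunits of the mitochondrial trifunctional protein and lie head to head, with RefSeq starts 273 bases apart. The Hadhb window, chr5:30155003-30155302 on the plus strand, is shown with the 228 bases that also lie in the Hadha window in capitals, since this stretch lies between the starts of both genes.
Hadhb promoter: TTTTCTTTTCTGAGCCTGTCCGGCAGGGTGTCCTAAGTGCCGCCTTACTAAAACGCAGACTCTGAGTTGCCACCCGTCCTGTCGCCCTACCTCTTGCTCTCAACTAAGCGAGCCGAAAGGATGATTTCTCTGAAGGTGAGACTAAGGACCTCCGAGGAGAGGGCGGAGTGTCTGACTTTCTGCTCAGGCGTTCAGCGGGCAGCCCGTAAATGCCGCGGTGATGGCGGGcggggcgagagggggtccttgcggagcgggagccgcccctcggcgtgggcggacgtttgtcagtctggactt
This window is 60.7% G and C and holds 24 CpG dinucleotides. Promoter windows, 250 bases before and 50 after the start, were found for 33 of the 37 members. None held the PPAR element AGGTCANAGGTCA, the ERR site TCAAGGTCA or the FoxO site GTAAACA on either strand, which are in 0.0481%, 0.466% and 4.05% of the windows of 27025 genes. The 6-base receptor core AGGTCA, which is part of the first 2 motifs, was in the windows of 6 members (18.2%; Pparg, Cpt1a, Acadm, Acadvl, Echs1 and Cd36) and of 18.1% of all genes. Among 8311 genes past the filter with a window, 14.7% held this core. In these genes the PPAR element was in 0.0481%, the ERR site in 0.361% and the FoxO site in 3.03%. The 33 members with a window are not the 33 past the filter. They include Ppara, Ppargc1a, Acot1 and Cd36, which are below it, and lack Crat, Acaa2, Decr1 and Fabp5. The 18.2% is therefore not a share of members past the filter, as the 14.7% is of genes.

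**Figure D1:**
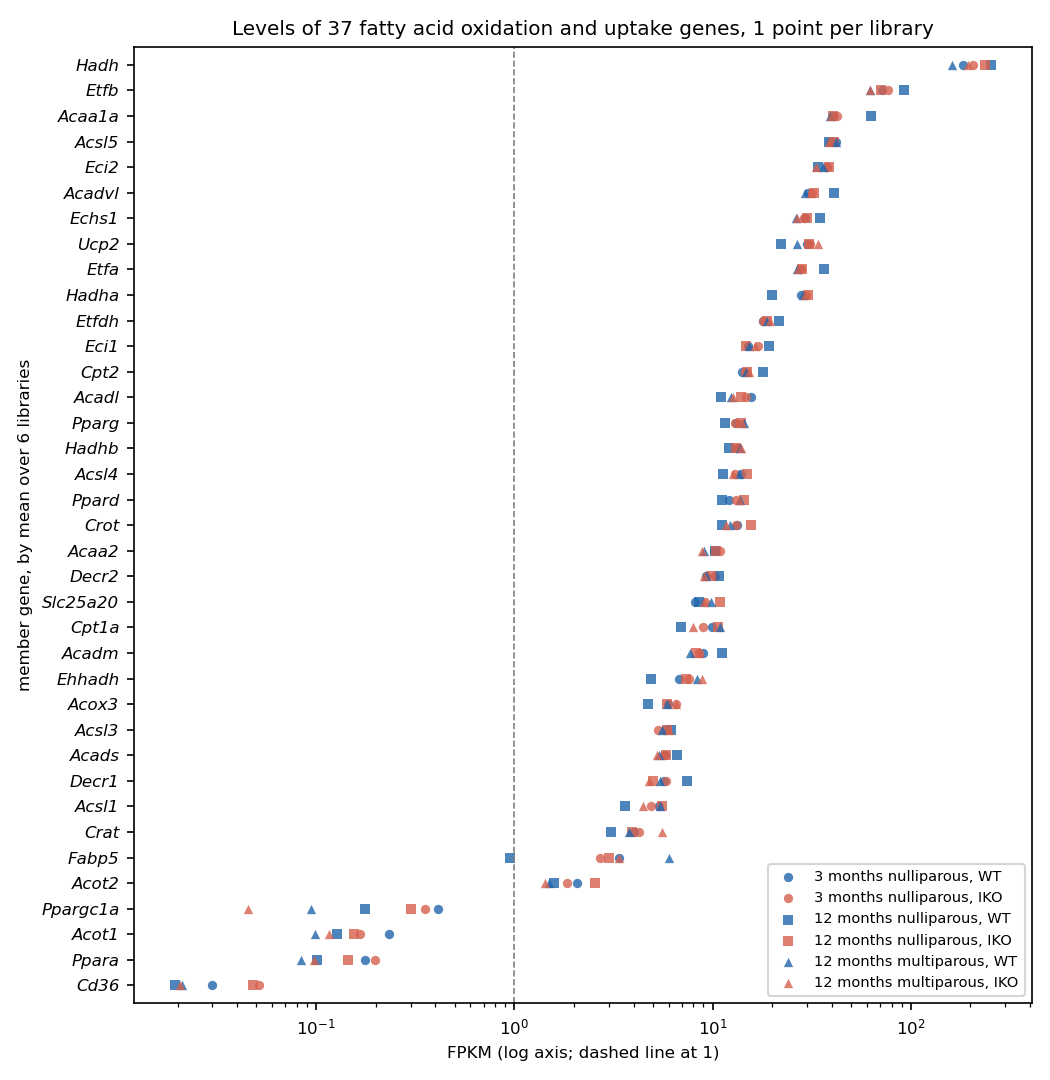
FPKM on a log axis of the 37 genes, ordered by their mean, with 1 point per library, colour for genotype and symbol for stage. Hadh lies at the top between 161 and 255 FPKM, and Ppargc1a, Acot1, Ppara and Cd36 lie to the left of the dashed line at 1 FPKM.

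Levels spanned a wide range. Hadh (short-chain 3-hydroxyacyl-CoA dehydrogenase, chr3:131233424-131272037) averaged 206 FPKM, rank 149 of 11131 genes. That mean was 2.83 times that of the next member, Etfb (72.7 FPKM). Hadh alone made up 23.0% to 29.9% of the members' summed FPKM, which was 701 to 852 FPKM or 0.254% to 0.296% of a library's total. The median member averaged 13.2 FPKM, and 19 members averaged at least 10 FPKM.

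Among the regulators, Pparg and Ppard were measured and Ppara and Ppargc1a were below the filter. Pparg, a fatty acid receptor best known from adipocytes, was at 13.2 (WT) and 13.0 (IKO) FPKM in young mice, 11.6 and 13.8 in older nulliparous mice, and 14.4 and 14.1 in multiparous mice. Ppard, the broadly expressed receptor of this family, was at 12.1, 11.2 and 13.8 FPKM in the WT libraries and 13.1, 14.4 and 13.7 in the IKO libraries. Both receptors were lowest in the 12-month nulliparous WT library. Ppara, the main receptor inducing oxidation genes in liver, was at 0.176 (WT) and 0.197 (IKO) FPKM at 3 months, 0.101 and 0.145 at 12 months without pregnancy, and 0.0843 and 0.0979 after pregnancies. Ppargc1a, a coactivator of mitochondrial genes, was at 0.412, 0.176 and 0.0943 FPKM in the WT libraries and 0.352, 0.302 and 0.0454 in the IKO libraries. Ppargc1a was lower in both multiparous libraries than in the 4 nulliparous ones, at levels below the filter on low values and with no test. The same held for Ppara and for Acot1, which was at 0.0991 and 0.117 FPKM against 0.127 to 0.233. The share of other genes this low for which it held was not counted.

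Uptake and activation genes differed widely in level. Cd36, the membrane fatty acid translocase, was at most 0.0512 FPKM in any library. Fabp5, a cytosolic fatty acid binding protein (chr3:10012585-10016610), was at 3.38 (WT) and 2.70 (IKO) FPKM in young mice, 0.948 and 3.01 in older nulliparous mice, and 6.02 and 3.37 in multiparous mice. The multiparous WT library was the highest and the 12-month nulliparous WT library the lowest, and the other 4 lay between 2.70 and 3.38 FPKM. In Fabp5 9.01% of 100-base stretches of its transcript also occur in another gene (Gm6166), so its value carries that uncertainty. Acsl5, a long-chain acyl-CoA synthetase, was the highest of the 4 synthetases, at 42.1 (WT) and 39.0 (IKO) FPKM at 3 months, 38.5 and 40.9 at 12 months without pregnancy, and 41.9 and 38.8 after pregnancies. Acsl4, which prefers arachidonate, was at 13.9, 11.2 and 13.6 FPKM in the WT libraries and 13.0, 14.9 and 12.6 in the IKO libraries. Acsl3, found at lipid droplets and the endoplasmic reticulum, was at 5.73 (WT) and 5.32 (IKO) FPKM in young mice, 6.15 and 5.92 in older nulliparous mice, and 5.57 and 6.04 in multiparous mice. Acsl3 was highest and Acsl4 and Acsl5 were lowest in the 12-month nulliparous WT library. Acsl1, the synthetase that feeds oxidation in muscle and fat, was at 5.40 (WT) and 4.89 (IKO) FPKM at 3 months, 3.61 and 5.58 at 12 months without pregnancy, and 5.46 and 4.47 after pregnancies, again lowest in that library.

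The carnitine shuttle moves acyl groups across the mitochondrial membranes. Cpt1a, its rate-limiting outer-membrane enzyme (chr19:3323301-3385733), was at 9.93 (WT) and 8.95 (IKO) FPKM in young mice, 6.93 and 10.6 in older nulliparous mice, and 10.9 and 7.97 in multiparous mice. Its WT and IKO libraries overlapped, with WT above IKO at 3 months and after pregnancies and below IKO at 12 months nulliparous. Slc25a20, the carnitine-acylcarnitine carrier, was at 8.18, 8.50 and 9.80 FPKM in the WT libraries and 9.12, 10.9 and 9.02 in the IKO libraries. Cpt2, the inner-membrane partner, was at 14.1 (WT) and 14.6 (IKO) FPKM at 3 months, 18.0 and 15.0 at 12 months without pregnancy, and 14.8 and 15.3 after pregnancies. The WT and IKO libraries of both overlapped, and the 12-month nulliparous WT library was highest for Cpt2. Crot, the peroxisomal carnitine octanoyltransferase, was at 13.3 (WT) and 13.1 (IKO) FPKM in young mice, 11.2 and 15.6 in older nulliparous mice, and 12.3 and 11.6 in multiparous mice. Crat, which buffers acetyl-CoA as acetylcarnitine (chr2:30400476-30415748), was at 4.03, 3.08 and 3.77 FPKM in the WT libraries and 4.25, 3.90 and 5.55 in the IKO libraries. Crat was highest in the multiparous IKO library and lowest in the 12-month nulliparous WT library.

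In the mitochondrial cycle, Hadh was at 185 (WT) and 206 (IKO) FPKM in young mice, 255 and 236 in older nulliparous mice, and 161 and 194 in multiparous mice. Both multiparous values were below the value of the same genotype at either nulliparous stage, but the multiparous IKO value was above that of WT at 3 months, so the groups overlapped. The acyl-CoA dehydrogenases open each turn of the cycle for a range of chain lengths. Acadvl, for very long chains, was at 30.4 (WT) and 31.8 (IKO) FPKM in young mice, 41.1 and 32.6 in older nulliparous mice, and 29.2 and 31.4 in multiparous mice. Acadl, for long chains, was at 15.7, 11.1 and 12.3 FPKM in the WT libraries and 14.8, 13.8 and 12.7 in the IKO libraries. Acadm, for medium chains, was at 8.96 (WT) and 8.57 (IKO) FPKM at 3 months, 11.2 and 8.27 at 12 months without pregnancy, and 7.71 and 8.57 after pregnancies. The 12-month nulliparous WT library was highest for Acadvl and Acadm and lowest for Acadl. Hadha was at 27.9, 20.002 and 28.6 FPKM in the WT libraries and 29.5, 30.3 and 29.2 in the IKO libraries. All 3 IKO values of Hadha were above all 3 WT values, with 28.6 FPKM the highest in WT and 29.2 the lowest in IKO. Hadhb stayed between 12.2 and 13.9 FPKM, and the Hadha to Hadhb ratio of FPKM was 1.65 in the 12-month nulliparous WT library and 2.07 to 2.30 in the others. The Hadhb transcript shares 52.8% of its 100-base stretches with Gm13910, so its level is uncertain. Of the remaining genes of the cycle, Acads, Acaa2 and Echs1 averaged 5.76 to 29.4 FPKM.

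The auxiliary, electron transfer and peroxisomal genes were given by range. Eci1, Eci2 and Decr1, which handle unsaturated chains, and the peroxisomal Decr2 averaged 5.68 to 36.2 FPKM. Etfa and Etfb, the subunits of the electron transfer flavoprotein, averaged 28.9 and 72.7 FPKM, and Etfdh, which passes its electrons to ubiquinone, 19.2 FPKM. Etfb shares 65.2% of its 100-base stretches with Gm45233 and is uncertain. Acaa1a, the peroxisomal thiolase, was at 39.3 to 42.6 FPKM in 5 libraries and at 63.0 FPKM in the 12-month nulliparous WT library, and 21.6% of its 100-base stretches are shared with its near copy Acaa1b. Acox3, an oxidase of branched chains, was at 4.75 to 6.52 FPKM. Ehhadh, the peroxisomal bifunctional enzyme (chr16:21761285-21787834), was at 6.75 (WT) and 7.59 (IKO) FPKM in young mice, 4.88 and 7.37 in older nulliparous mice, and 8.40 and 8.90 in multiparous mice. Both multiparous values of Ehhadh were above all 4 nulliparous values. Acot2, a mitochondrial thioesterase, was at 2.06 (WT) and 1.84 (IKO) FPKM at 3 months, 1.58 and 2.55 at 12 months without pregnancy, and 1.49 and 1.43 after pregnancies. Acot1, its cytosolic relative, was at most 0.233 FPKM. Their transcripts are 67.4% identical, and 17.1% of 100-base stretches of Acot2 occur in Acot1, so both values are uncertain. Ucp2, an inner-membrane carrier known to lower glucose-stimulated insulin secretion in mice (chr7:100493345-100502173), was at 29.8, 22.2 and 26.7 FPKM in the WT libraries and 31.0, 30.7 and 34.0 in the IKO libraries.

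**Figure D2:**
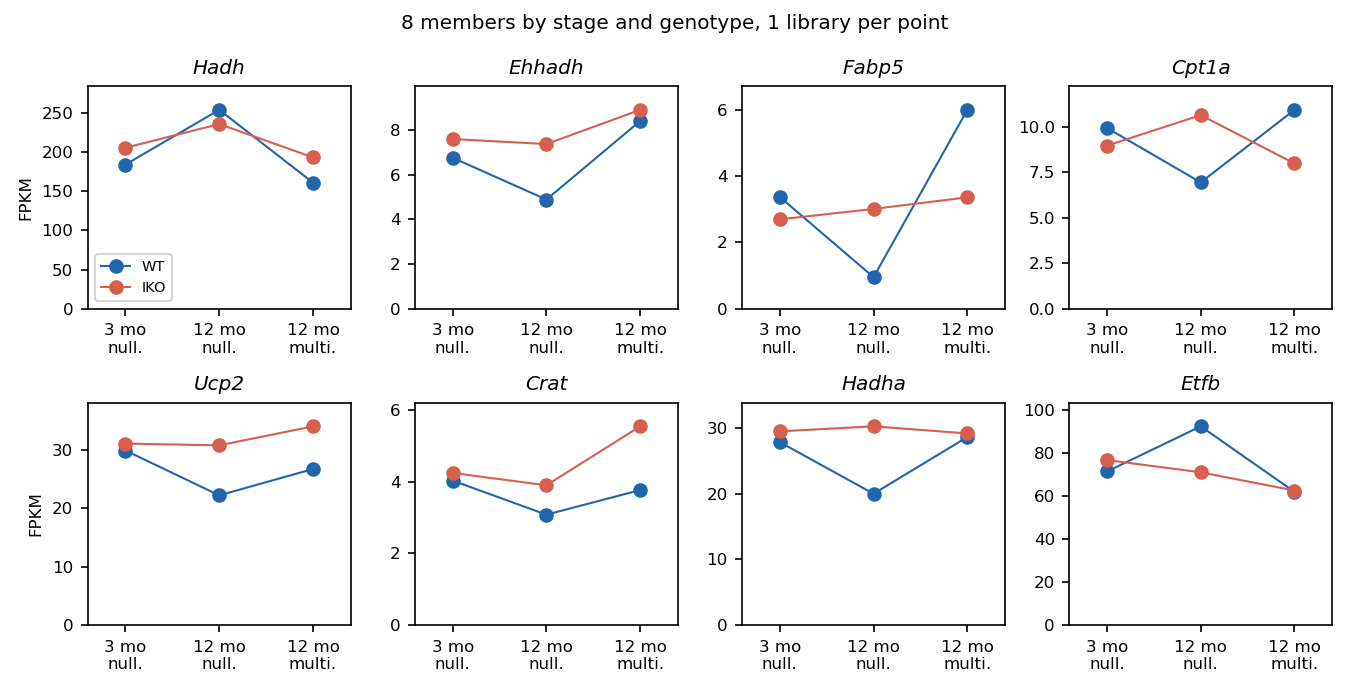
FPKM of 8 members by stage, with 1 library per point, blue for WT and red for IKO; lines join the stages of 1 genotype and each axis starts at 0. Hadh was between 161 and 255 FPKM, and Fabp5 ranged from 0.948 to 6.02 FPKM in WT. Ucp2, Hadha, Ehhadh and Crat were higher in IKO at all 3 stages, and the share of all genes that were so was not counted.

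Members varied among the libraries about as much as genes in general. Leaving out the 12-month nulliparous WT library, the ratio of the highest to the lowest library had a median of 1.16 over the members and 1.18 over 11104 tested genes with no value of 0. It was under 1.5 for 31 members (93.9%) and for 88.8% of genes. The exceptions were Fabp5 (2.23-fold) and Acot2 (1.78-fold). Over all 6 libraries the medians were 1.38 and 1.39. The 12-month nulliparous WT library was highest for 14 members and lowest for 15, shares of 42.4% and 45.5% against 32.4% and 43.6% of all genes.

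The direction of that library's deviation went with transcript length. Its difference from the median of the other 5 had a Spearman's rho of -0.49 with the length of the longest transcript over the 33 members. With log2 of that length Pearson's r was -0.34. Over 10450 genes with a known length the rho was -0.39. These are descriptions across genes of 1 library, and genes are not independent replicates. Of 17 members up to the median length of 2196 bases 9 were highest and 4 lowest in that library, with a median deviation of 0.18 on the log2 scale. Among the 16 longer members 5 were highest and 11 lowest, with a median of -0.26. Fabp5, among the shortest members, was the farthest below 0. Every pair that holds this library is therefore given beside the pairs that do not.

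**Figure D3:**
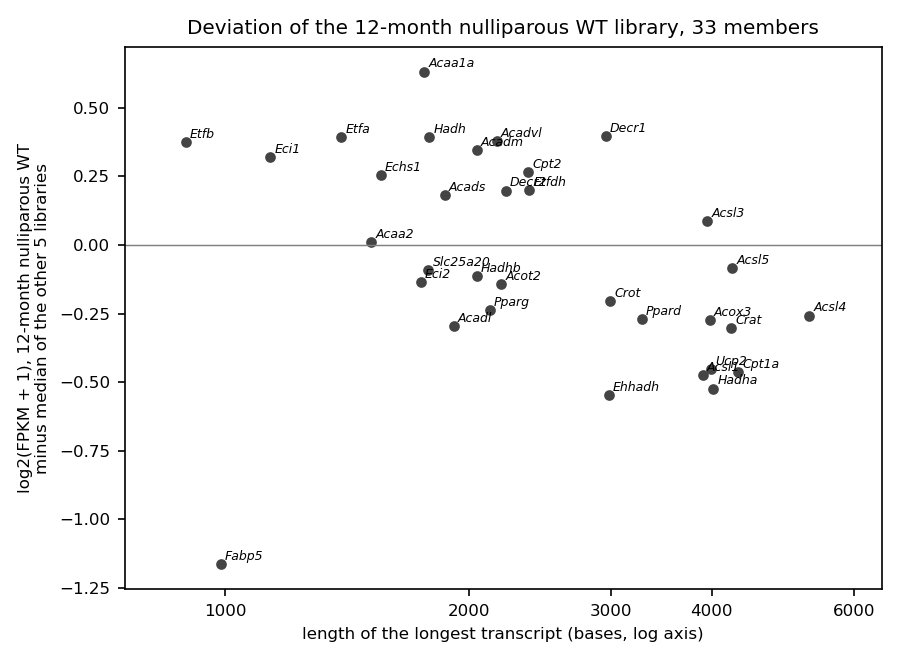
Deviation of the 12-month nulliparous WT library from the median of the other 5, in log2(FPKM + 1), against the length of the longest transcript on a log axis, with 1 point per member. Fabp5 lies lowest, and members up to 2196 bases had a median deviation of 0.18 against -0.26 for longer ones.

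IKO and WT were compared to ask what loss of FoxO1 in beta cells does to these genes. No member was called in the genotype test. In limma on log2(FPKM + 1) over the 3 stages, with 2 residual degrees of freedom and Benjamini-Hochberg adjustment, 0 of 33 members and 0.0% of all genes had an adjusted p under 0.05. Foxo1, the targeted gene, was among the genes not called, so the lack of calls does not show that members were unchanged. At an unadjusted p under 0.05 these were 0 of 33 members and 180 genes (1.62%). With nothing to say that libraries came from separate animals, the p-values reflect the spread of these 6 libraries alone, which may be technical. The median log2 difference was 0.023 for the members and 0.018 for all genes.

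Within single stages, no member passed 1.5-fold at 3 months, where 30 members reached 5 FPKM in at least 1 library of the pair and 0.32% of genes passed. The member farthest from 0 there was Fabp5, at a log2 ratio of -0.24. In the multiparous pair 1 of 32 passed 1.5-fold, against 0.821% of genes. This was Fabp5, lower in IKO (log2 ratio -0.68). In the 12-month nulliparous pair, which holds the library that stood apart, 1 of 30 passed, against 18.0% of genes. It was Acaa1a, lower in IKO (log2 ratio -0.63). Rescaled without the 20 highest genes, 6 were higher and 0 lower in IKO. This rescaling moved the median of all genes in this pair from 0.07 to 0.22. Of all genes, those past 2-fold went from 54 higher and 270 lower to 142 and 156. The share of all genes past 1.5-fold was not counted under this rescaling, so the 6 are not a result about the members. Fabp5, under 5 FPKM in both libraries and so not counted, had a ratio of 1.04. All 3 pairs have 1 library per side and no test, and 0 counted members passed 2-fold, against 0.111%, 3.88% and 0.221% of genes at 3 months, 12 months nulliparous and after pregnancies. None of 30 passed 1.5-fold the same way in at least 2 stages, against 0.101% of genes higher and 0.202% lower.

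Ucp2 and Hadha were the members for which all 3 IKO libraries lay above all 3 WT libraries (2 of 33, against 3.28% of genes), and 0 of 33 had all IKO libraries lower (2.32% of genes). The log2 ratio of Ucp2, from 22.2 to 29.8 FPKM in WT and 30.7 to 34.0 in IKO, was 0.054 at 3 months, 0.45 at 12 months nulliparous and 0.34 after pregnancies. Its fitted difference was 0.28 (SE 0.11, 6 libraries, limma adjusted p = 0.923). Leaving out the 12-month nulliparous WT library it was 0.20. Crat was higher in IKO at all 3 stages, most in the multiparous pair (log2 ratio 0.46), with a fitted difference of 0.26 (SE 0.11, limma adjusted p = 0.923). Ehhadh and Acox3 were also higher in IKO at all 3 stages, with fitted differences of 0.24 and 0.17 (limma adjusted p = 0.923 for both). Acads was lower in IKO at all 3 stages. How many of all genes keep 1 direction at all 3 stages was not counted. It therefore cannot be said whether the members differ from other genes in this. Cpt1a and Fabp5 went in opposite directions at 12 months. The log2 ratio of IKO to WT for Cpt1a was 0.55 in nulliparous and -0.41 in multiparous libraries.

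Age was compared within nulliparous mice, at 12 against 3 months. No member passed the test (0 of 33, against 0.027% of genes in limma), and 0 of 33 had an unadjusted p under 0.05, against 4.33% of genes. In IKO 0 of 30 members passed 1.5-fold, against 1.22% of genes, with a median log2 ratio of 0.036 over the 33 and 0.020 over all genes. Acot2 was the farthest from 0, at 1.84 FPKM at 3 months and 2.55 at 12 months (log2 ratio 0.32). In WT, where the 12-month library is the one that stood apart, 1 of 30 passed, against 17.4% of genes. It was Acaa1a, higher at 12 months (log2 ratio 0.63). Rescaled without the 20 highest genes, 0 were higher and 5 lower. This rescaling moved the median of all genes in this pair from -0.05 to -0.22. Of all genes, those past 2-fold went from 292 higher and 56 lower to 152 and 138. The share past 1.5-fold was again not counted under rescaling. Fabp5, under 5 FPKM in both libraries and so not counted, had a ratio of -1.17. Hadh had 185 and 255 FPKM in WT, with 206 and 236 in IKO, higher at 12 months in both, with a fitted difference of 0.33 (SE 0.15, limma adjusted p = 0.740). Both 12-month nulliparous libraries were above both at 3 months for 8 members, against 19.8% of genes, and below them for 4, against 17.4%. The 4 were Acadl, Acox3, Crat and Hadhb. No counted member passed 2-fold with age, against 4.19% of genes in WT and 0.256% in IKO, and 0 of 30 passed 1.5-fold the same way in both genotypes, against 0.198% in each direction. Without the 12-month nulliparous IKO library, the WT library that stood apart alone stands for the 12-month nulliparous stage. The age calls of that fit therefore rest on this 1 library and were not read as a result.

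Multiparous and nulliparous mice were compared at 12 months. No member passed the test (0 of 33, against 0.027% of genes in limma). At an unadjusted p under 0.05 there were 2 of 33, Hadh lower and Ehhadh higher after pregnancies, against 7.4% of genes. Hadh had 255 FPKM nulliparous and 161 multiparous in WT, and the IKO values were 236 and 194. Its fitted log2 difference was -0.47 (SE 0.15, 6 libraries, limma adjusted p = 0.646). Ehhadh had 4.88 and 8.40 FPKM in WT, with 7.37 and 8.90 in IKO, with a fitted difference of 0.46 (SE 0.15, limma adjusted p = 0.643). Leaving out the 12-month nulliparous WT library, where the IKO library alone stands for that stage, the differences were -0.31 for Hadh and 0.26 for Ehhadh. Without the 12-month nulliparous IKO library, where the WT library alone stands for that stage, 22 of 33 members (66.7%) and 56.8% of all genes were called.

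In the IKO pair 0 of 30 members passed 1.5-fold, against 2.12% of genes, or 2-fold, against 0.487%. Crat was higher after pregnancies (log2 ratio 0.42), and Crot (-0.39), Cpt1a (-0.37) and Hadh (-0.29) were lower. Acot2, under 5 FPKM and so not counted, was lower by the widest margin (log2 ratio -0.54). In the WT pair, which holds the library that stood apart, 5 of 31 passed 1.5-fold, against 20.1% of genes. Cpt1a, Ehhadh and Fabp5 were higher and Acaa1a and Hadh lower after pregnancies. Rescaled without the 20 highest genes, 5 were higher and 0 lower, and by the median ratio 2 were higher and 3 lower. The first rescaling moved the median of all genes in this pair from 0.06 to 0.21. Of all genes, those past 2-fold went from 109 higher and 300 lower to 203 and 180, and to 84 and 359 by the median ratio. The share past 1.5-fold was not counted under either rescaling. Fabp5 was also the 1 member of 31 past 2-fold, against 4.89% of genes, at a log2 ratio of 1.85, and in IKO its ratio was 0.12. Its fitted difference was 0.98 (SE 0.43, limma adjusted p = 0.646), and without the 12-month nulliparous WT library it was 0.23. Of 29 members counted in both genotypes, 0 passed 1.5-fold the same way in both, against 0.433% of genes higher and 0.322% lower.

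Against all 4 nulliparous libraries, both multiparous libraries were higher for 3 members (11.9% of genes), namely Ehhadh, Hadhb and Pparg. They were lower for 8 (9.22% of genes), namely Acaa1a, Acaa2, Acads, Acot2, Decr2, Echs1, Etfa and Etfb. These distances were short. Etfb was at 62.0 and 62.6 FPKM after pregnancies and at 71.1 to 92.5 in the nulliparous libraries. Echs1, the short-chain hydratase, was at 26.4 and 26.7 FPKM against 29.1 to 34.9. Acaa2, the last enzyme of the mitochondrial cycle, was at 9.07 and 8.86 FPKM against 10.2 to 10.9. Leaving out the 12-month nulliparous WT library, chosen after seeing the data, 11 members were lower (16.6% of genes) and 3 higher (17.8%). The acinar markers moved with these groups, summing to 4.05 and 4.74 FPKM in the multiparous libraries and to 7.25 to 75.0 in the nulliparous ones, and their part in the result was not tested.

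**Figure D4:**
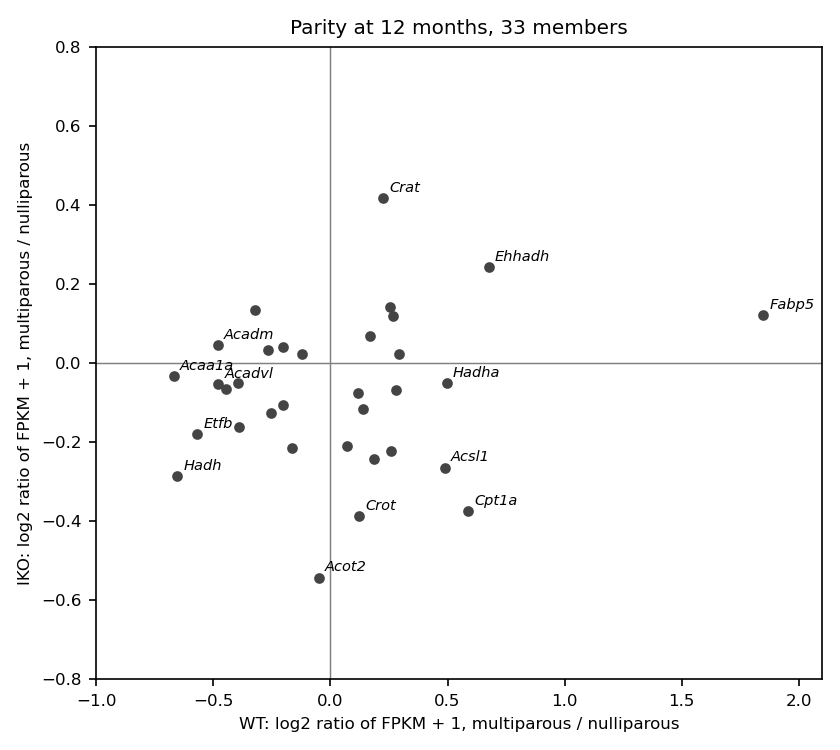
Log2 ratio of FPKM + 1 of multiparous to nulliparous libraries at 12 months, in WT on the horizontal and in IKO on the vertical axis, with 1 point per member and 1 library per side. Fabp5 lies at 1.85 in WT and 0.12 in IKO, and Hadh lies below 0 in both.

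Other genes of the pathway were taken from 9 lists, of which 71 of 95 genes passed the filter. In limma 0 of 71 were called for genotype, age or parity, and 1, 6 and 7 had an unadjusted p under 0.05, against 1.62%, 4.33% and 7.4% of all genes. For parity, Hilpda was higher and Txnip lower past 1.5-fold in both genotypes, against 0.433% and 0.322% of all genes. Txnip was also past 1.5-fold with age in both, higher at 12 months, through the same 12-month nulliparous libraries (0.198% of all genes). Hilpda, an inhibitor of lipolysis at lipid droplets, was at 13.1 and 12.2 FPKM after pregnancies and at 5.84 to 7.42 in the nulliparous libraries, with a fitted difference of 0.79 (SE 0.13, limma adjusted p = 0.383). Txnip, a glucose-induced inhibitor of thioredoxin, was at 33.0 and 24.4 FPKM in the 12-month nulliparous libraries of WT and IKO, at 10.8 and 15.0 after pregnancies, and at 15.9 and 15.5 at 3 months. Its fitted parity difference was -1.10 (SE 0.22, limma adjusted p = 0.431).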

How the data were processed

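Directional poly-A libraries of sorted beta cells were sequenced as paired 100-base reads, per the labels' protocols. The submitters' processing notes name TopHat, Cufflinks, Cuffdiff and mm10, with no versions. The deposited values are FPKM per gene as the authors computed them, with 1 column per library and no counts, so depth is unknown and an exact 0 can be a failed estimate. FPKM summed to 268006 to 316023 per library. Repeated symbols (260, in 758 lines) were left out, leaving 23087 genes, and 1 was added to the table's starts, since among 11990 genes with the same end as in RefSeq 76.6% have a start 1 base lower in the table.

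Genes averaging 1 FPKM or more were tested on log2(FPKM + 1), a scale that understates the change of low genes, with limma 3.58.1 (R 4.3.3): additive terms for genotype and stage, a trended prior, and Benjamini-Hochberg adjustment over 11131 genes at 0.05. The limma code was tested on simulated data in which all genes had the same spread, which does not show its power on these libraries. Pairs of single libraries have no test and were counted past 1.5-fold or 2-fold where at least 1 library had 5 FPKM. Shared stretches, transcript identity, and transcript length and GC came from GENCODE transcripts, and promoters from RefSeq.

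The members and lists were chosen with earlier results of these data known. Values in every library were given for 22 set genes, for members past 1.5-fold the same way in both genotypes or 2 of 3 stages, past 2-fold in any pair or with an unadjusted p under 0.05; the rest by range, apart from Crat, Hadhb, Etfb, Echs1 and Acaa2, chosen after their values were seen. Alternatives covered pseudocounts of 0.1 and 5, filters, rescaling, length and GC, and leaving out each library.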

Additional observations from a re-analysis of the deposited data

Results flagged for a closer look

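Cpt1a was higher in the multiparous than in the nulliparous WT library at 12 months (log2 ratio 0.59) and lower in the corresponding IKO library (-0.37). The same 4 libraries give an IKO to WT ratio for Cpt1a of 0.55 when nulliparous and -0.41 when multiparous. For Fabp5 the IKO to WT log2 ratio was 1.04 when nulliparous and -0.68 when multiparous. These were picked out because both directions passed a size chosen after seeing the data. Each side is 1 library, and the difference between the ratios was not tested. All 3 comparisons hold the 12-month nulliparous WT library, which stood apart over all genes.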

How the results depend on the processing

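The fitted differences of Hadh, Ehhadh, Fabp5, Ucp2 and Crat kept their sign under the alternatives run. Of the counts over all genes, genotype calls went from 0 to 1 at a pseudocount of 0.1. Age calls went from 3 to 0 without genes listed at 0. Parity calls went from 3 to 0 with no filter, with a mean of at least 5 FPKM or without genes listed at 0, and to 1 when rescaled without the 20 highest genes. Leaving out 1 library at a time gave 2 to 9 genotype, 17 to 6039 age and 20 to 6319 parity calls. Member calls stayed at 0 for genotype, and were 0 to 21 for age and 0 to 22 for parity. The highest of each age and parity range came without the 12-month nulliparous IKO library. For the fitted differences these ranges were -0.63 to -0.31 for Hadh, 0.26 to 0.66 for Ehhadh, 0.23 to 1.74 for Fabp5 (parity), 0.20 to 0.40 for Ucp2 and 0.16 to 0.36 for Crat (genotype).

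Members past 1.5-fold in the 12-month nulliparous genotype pair went from 1 to 4 at a pseudocount of 0.1, to 6 when rescaled without the 20 highest genes and to 0 with the length and GC trend removed. The multiparous genotype pair went from 1 to 0 at a pseudocount of 5 or a mean of at least 5 FPKM. The WT age pair went from 1 to 0 at a pseudocount of 5, to 5 when rescaled and to 0 with the trend removed. The WT parity pair went from 5 to 6 at a pseudocount of 0.1, to 3 at a pseudocount of 5 and to 2 with the trend removed, Ehhadh and Fabp5. The share of all genes past 1.5-fold was not counted under these alternatives, so moves of the members cannot be set apart from those of other genes. Members with both multiparous libraries below all nulliparous ones went from 8 (9.22% of genes) to 7 under either rescaling. The shares of all genes were then 7.60% without the 20 highest genes and 9.09% by the median ratio. The causes of these moves were not tested.

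No paired analysis was possible because each group has 1 library and the labels carry no replicate numbers. With 1 library per group, pairs carry no error. The fits of all libraries rest on 2 residual degrees of freedom, and those that leave out a library rest on fewer. All fits assume that genotype and stage add. FPKM gives no depth, so no counting error is given.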
